A study of Mus musculus with 4 samples.

Results

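The genes described here encode the nuclear-made subunits of the mitochondrial respiratory chain and of ATP synthase. They were taken by symbol from the 22722 genes of the count tables: every symbol that begins with Nduf, Uqcr or Atp5, or with Cox followed by 4 to 8, together with Sdha, Sdhb, Sdhc, Sdhd and Cyc1. The rule found 91 genes and used no measured value. It holds 36 genes of complex I, 4 of complex II, 9 of complex III, 20 of complex IV including isoforms of single tissues, 15 of complex V, and 4 assembly factors of complex I. A further 3 genes are caught by their names alone: Cox4nb lies beside Cox4i1 and encodes a subunit of the endoplasmic reticulum membrane complex, Atp5s encodes a coupling factor, and Atp5sl encodes an assembly protein of complex I. Ndufa4 and Ndufa4l2 are placed with complex IV, where the Ndufa4 protein is now assigned. Subunits encoded by mitochondrial DNA were not analysed here.

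Electrons from NADH enter the chain at complex I and those from succinate at complex II, which is also an enzyme of the citric acid cycle. Ubiquinone carries them to complex III, cytochrome c carries them to complex IV, and oxygen accepts them there, while complexes I, III and IV pump protons across the inner membrane. Complex V, ATP synthase, lets the protons return and makes ATP, which a secreting cell such as a plasma cell uses in quantity for protein synthesis, folding and export.

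The samples were 4 RNA-seq libraries, read on the SOLiD platform, of MPC11, a mouse plasmacytoma line obtained from ATCC and grown in RPMI with serum. The 2 control libraries (shGFP) came from cells transduced with pLKO.1 lentivirus carrying a hairpin against GFP, and the 2 others (Ell2-KD) from cells given the pLKO.1 hairpin shELL2-1C7 against Ell2, which encodes a factor of transcription elongation. All cells received polybrene, lost the virus after 18 h, were selected in puromycin for 72 h and grew on for 72 h, so both groups share the vector and the drug. A single hairpin stood for each group, so effects of losing Ell2 and effects of that hairpin on other transcripts cannot be told apart. The labels speak of biological replicates and do not say whether each was transduced separately, so a p-value here measures the spread between these libraries, which may be technical.

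Total counts per library were 8323915 and 5088789 in shGFP and 13914488 and 3496471 in Ell2-KD, and 11027 genes had enough counts to be tested. Ell2 stood at 938 and 996 CPM in shGFP and 87.8 and 115 CPM in Ell2-KD, and edgeR's quasi-likelihood test put the log2 change at -3.25 ± 0.23 (SE; adjusted p = 0.00032). As far as the 8 markers measured show, plasma cell genes other than Tnfrsf17 were present in every library. Igj, the joining chain of secreted antibody, stood at 8458 to 11718 CPM. Tnfrsf17 had 159 and 126 counts in shGFP and 18 and 1 in Ell2-KD, so it was close to absent in Ell2-KD replicate 2. All 8 markers had log2 changes below 0, and none passed the edgeR threshold (smallest adjusted p = 0.183, for Tnfrsf17), with 3 (37.5%, against 5.82% of all tested genes) at an unadjusted p under 0.05. DESeq2 called 1 of the 8, Tnfrsf17, lower, and 34 genes in all. Summed markers of T and NK cells (8 genes) and of myeloid cells (7 genes) stayed between 0.862 and 4.86 CPM, and those of erythroid cells (3 genes, with Hbb-b1 at 0 in all) at or below 0.590 CPM. Fibroblast and epithelial markers (8 genes) summed to 495 to 631 CPM in shGFP and 455 to 590.3 CPM in Ell2-KD, of which Epcam gave 444 to 629 CPM. CPM are counts relative to the library total (cpm in edgeR, after TMM scaling), and such values are shares: fewer cells and less RNA per cell cannot be told apart in such bulk samples.

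Together the 91 genes took 1.05% and 1.16% of all counts in shGFP and 1.10% and 1.10% in Ell2-KD, which is 38568 to 152902 counts per library. Both Ell2-KD libraries lay between the shGFP libraries. Complex V and complex I took the most. Complex V stood at 3582 and 3378 CPM of all counts in shGFP and 3819 and 3655 in Ell2-KD, so both Ell2-KD libraries were above both controls. That sum does not describe its genes alike: over the 15 the median log2 change was -0.01, with 7 above 0 and 8 below. Atp5b and Atp5a1, the complex V genes with the most counts, each overlapped between groups. Complex I had 3062 and 3612 in shGFP and 2919 and 3041 in Ell2-KD, with both Ell2-KD libraries lowest. For complex IV the values were 1536 and 2077 against 1783 and 1978, for complex III 1251 and 1352 against 1396 and 1296, and for complex II 799 and 1022 against 864 and 880, and these groups overlapped. The gap between the shGFP libraries was larger than any gap between group means for complexes I, II, III and IV. No test was made on these sums.

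**Figure D1:**
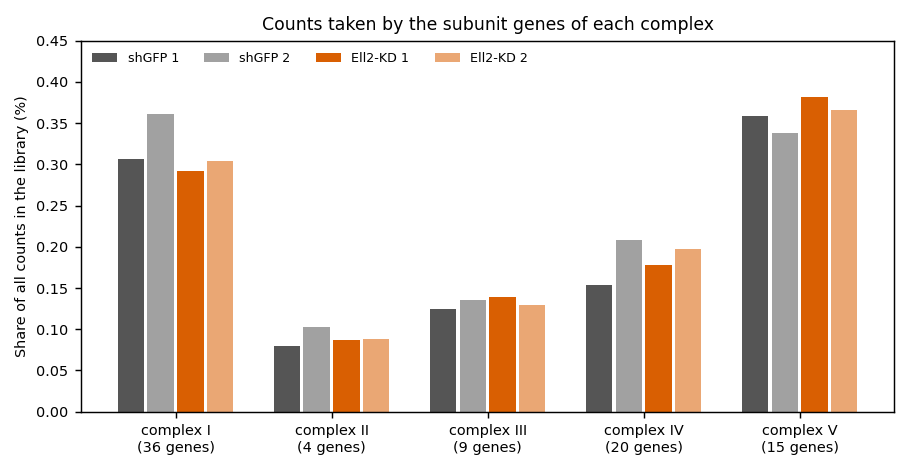
Share of all counts (percent, vertical axis) taken by the genes of complexes I to V in each of the 4 libraries, with 1 bar per library. The bars of a complex stand at like heights, complexes I and V are the tallest, and the spread between shGFP 1 and shGFP 2 is wider than that between group means for complexes I to IV.

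Of the 91 genes, 83 had enough counts for the test. None passed the edgeR threshold of 0.05 after adjustment over all 11027 genes, where 5 genes or 0.0453% passed, 1 higher and 4 lower, and DESeq2 called none of them either. The smallest adjusted p of a subunit gene in edgeR was 0.746. At an unadjusted p under 0.05 edgeR counted 3 of the 83, or 3.61%, and DESeq2 2, whereas 5.82% of all tested genes had such a p in edgeR. The 3 were Ndufa10, Uqcrfs1 and Cox4i2. The log2 change from shGFP to Ell2-KD was above 0 for 36 genes and below 0 for 47, with a median of -0.05, beside a median of -0.00 over all genes. For 65 of the 83 the estimate lay within 0.5 of 0 on the log2 scale. The 2 libraries of a group did not overlap with the other group for 25 genes, or 30.1%, against 35.8% of all genes. Of these, 10 were higher in Ell2-KD and 15 lower, where 17.4% and 18.5% of all genes were higher and lower without overlap. The shares among the subunit genes were thus near or under those of all genes. Transcript length differs between the sets. Among principal transcripts under 1000 bases, 26.5% of the subunit genes and 25.6% of all tested genes did not overlap. At 1000 bases or more the shares were 35.3% and 36.8%.

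How large a change the data leave possible differs by gene. Standard errors of the log2 change ran from 0.19 for Atp5a1 to 1.37 for Cox7c, with a median of 0.36. For 38 genes the whole 95% confidence interval lay within 1 log2 unit of 0, which excludes a doubling or a halving at that confidence. For the other 45 the interval reaches beyond a change of that size.

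**Figure D2:**
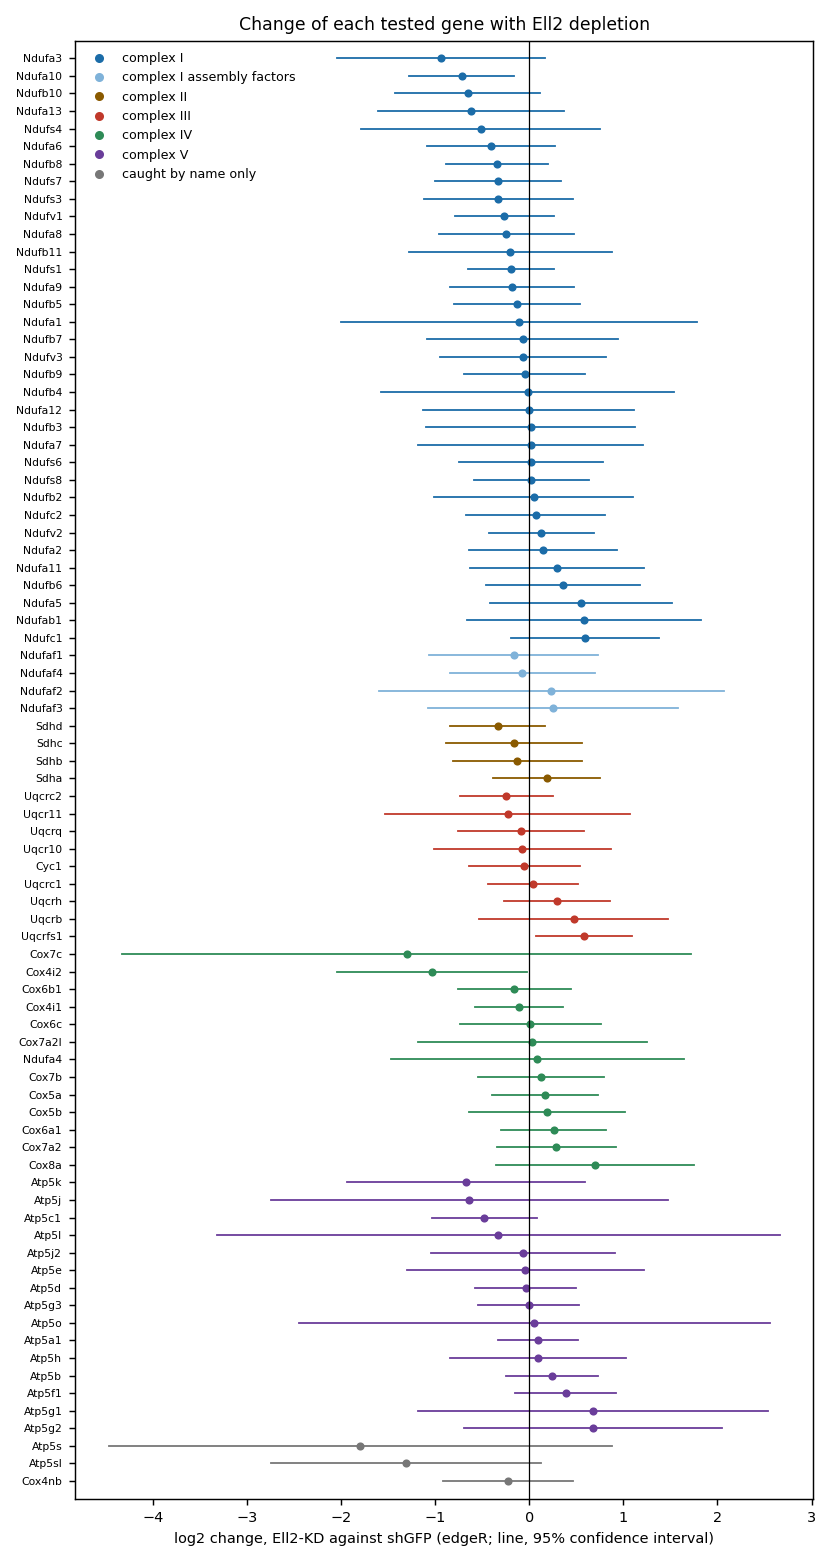
The log2 change from shGFP to Ell2-KD (horizontal axis) with its 95% confidence interval from edgeR, for 82 of the 83 tested genes, coloured by complex and sorted by change within each. Points of every complex lie on both sides of 0 except the 3 genes caught by name, and most intervals cross 0.

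Complex I was described by 35 tested genes, 13 above and 22 below 0, with a median log2 change of -0.07. The 7 nuclear subunits of its catalytic core, which bind FMN and the iron-sulfur clusters, had a median of -0.19, with 2 above 0 and 5 below. Ndufs1, the largest of them, stood at 481 and 491 CPM in shGFP and 389.6 and 459.6 CPM in Ell2-KD. Ndufv1, which oxidises NADH, stood at 216 and 186 CPM in shGFP and 179 and 154 CPM in Ell2-KD. Ndufs7, next to the ubiquinone site, stood at 76.8 and 67.1 CPM in shGFP and 57.1 and 57.4 CPM in Ell2-KD. In these 3 genes both Ell2-KD libraries were below both controls, with log2 changes of -0.19 ± 0.21, -0.27 ± 0.24 and -0.33 ± 0.30 (SE). Of all tested genes, 18.5% were lower without overlap in this way. Ndufs3, Ndufs8 and Ndufv2 overlapped between groups. Their log2 changes were -0.33 ± 0.36 for Ndufs3, 0.02 ± 0.28 for Ndufs8 and 0.13 ± 0.25 for Ndufv2 (SE), and the edgeR adjusted p of all 7 core genes was 0.963 or more.

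The 28 tested accessory subunits of complex I, which surround and stabilise the core, had a median of -0.06 and ran from -0.94 to 0.59. Ndufa10, a subunit on the matrix side, had 177 and 160.1 CPM in shGFP and 104 and 101 CPM in Ell2-KD. The groups were apart and the libraries within each group close. Its log2 change was -0.72 ± 0.25 (SE; edgeR adjusted p = 0.746), and it ranged from -0.79 to -0.64 over the alternative analyses, with adjusted p from 0.237 to 1.00. Ndufb10, a membrane arm subunit, showed the same order at 61.3 and 55.4 against 42.2 and 31.6 CPM, with a log2 change of -0.65 ± 0.35 (SE). Ndufb8, of the same arm, had 228 and 229.6 against 208 and 152 CPM and a log2 change of -0.34 ± 0.24 (SE). Ndufa3 had 30.8 and 67.1 against 34.5 and 15.8 CPM, highest in shGFP replicate 2 and lowest in Ell2-KD replicate 2, and a log2 change of -0.94 ± 0.50 (SE). Over the alternatives, each library left out in turn among them, the estimate ran from -1.62 to -0.28. In the other direction, Ndufc1, Ndufa5, Ndufb6 and Ndufab1, the mitochondrial acyl carrier protein, were higher in both Ell2-KD libraries than in both controls. These 4 genes, chosen after their values were seen, had log2 changes of 0.59 ± 0.36, 0.55 ± 0.44, 0.36 ± 0.37 and 0.58 ± 0.56 (SE), and none passed the edgeR test. Higher values without overlap were seen for 17.4% of all tested genes.

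The assembly factors of complex I, proteins that help build it and then leave, gave small values. Ndufaf1 had 45.1 and 31 CPM in shGFP and 28.3 and 39.8 CPM in Ell2-KD, and Ndufaf3 had 10.9 and 12.5 CPM in shGFP and 10.5 and 17.6 CPM in Ell2-KD. The groups overlapped for all 4 factors, and their median log2 change was 0.08.

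Succinate dehydrogenase, complex II, has a catalytic head of Sdha, which carries FAD, and Sdhb, which holds the iron-sulfur clusters, on a membrane anchor of Sdhc and Sdhd. Sdha stood at 259 and 404 CPM in shGFP and 335 and 418 CPM in Ell2-KD, with a log2 change of 0.18 ± 0.26 (SE). Sdhb stood at 177 and 201 CPM in shGFP and 229 and 116 CPM in Ell2-KD, with -0.13 ± 0.31 (SE). The highest and the lowest Sdhb values were both in Ell2-KD. Sdhc stood at 117 and 209 CPM in shGFP and 115 and 177 CPM in Ell2-KD, with -0.16 ± 0.33 (SE). For these 3 genes the groups overlapped. Sdhd was the only complex II gene without overlap, at 240.0 and 219 CPM in shGFP and 174 and 189 CPM in Ell2-KD and -0.34 ± 0.23 on the log2 scale (SE; by edgeR adjusted p = 0.919).

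In complex III, cytochrome c1 (Cyc1) and the Rieske iron-sulfur protein (Uqcrfs1) pass the electrons on. Cyc1 stood at 136 and 116 CPM in shGFP and 134 and 109 CPM in Ell2-KD, where the groups overlapped, and its log2 change was -0.05 ± 0.27 (SE) with a 95% interval of -0.64 to 0.54. Uqcrfs1 stood at 154 and 169 CPM in shGFP and 255 and 229 CPM in Ell2-KD. Both Ell2-KD libraries were above both controls by more than the libraries of a group differed, and the log2 change was 0.58 ± 0.23 (SE; by edgeR adjusted p = 0.807; 0.50 to 0.66 over the alternatives). The core proteins Uqcrc1 and Uqcrc2, which carry no electrons, overlapped between groups, with log2 changes of 0.04 ± 0.22 and -0.25 ± 0.22 (SE). The hinge protein Uqcrh had 109 and 113 against 138 and 135 CPM and a log2 change of 0.30 ± 0.26 (SE), and Uqcrb had 26.9 and 16.1 against 30.2 and 29.6 CPM and 0.47 ± 0.46 (SE). Both were higher without overlap. Uqcrq overlapped, with -0.09 ± 0.30 (SE). Over the 9 genes the median was -0.05, with 4 above 0 and 5 below.

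Complex IV, cytochrome c oxidase, contains several nuclear subunits that exist as pairs of isoforms. Its 13 tested genes had a median log2 change of 0.08, with 9 above 0 and 4 below. The common isoform Cox4i1 stood at 482 and 504 CPM in shGFP and 402 and 512 CPM in Ell2-KD, and its log2 change was -0.11 ± 0.21 (SE). Its paralog Cox4i2, known as the form of lung and of cells short of oxygen, stood at 46.5 and 39.3 CPM in shGFP and 27.7 and 13.5 CPM in Ell2-KD. The level was lowest in Ell2-KD replicate 2, the shallowest library, which held 46 counts against 390, 198 and 391 in shGFP replicates 1 and 2 and Ell2-KD replicate 1. The log2 change of Cox4i2 was -1.04 ± 0.46 (SE; by edgeR adjusted p = 0.830). It was -1.67 to -0.62 over the alternatives, and the adjusted p was as low as 0.102 without Ell2-KD replicate 1.

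Expressed as a share of the counts of both Cox4 genes, Cox4i2 took 8.79% (95% Wilson interval 8.0 to 9.66) and 7.23% (6.32 to 8.26) in shGFP. In Ell2-KD it took 6.45% (5.86 to 7.10%) and 2.56% (1.93 to 3.40%). The gap between the Ell2-KD libraries was wider than that between Ell2-KD replicate 1 and the nearer control, and those 2 intervals overlap. Such intervals cover counting error only, since reads without molecular identifiers are not independent molecules. With 2 libraries against 2, an exact permutation test of a single value cannot go below p = 0.333, so no p is given for the shares.

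The other complex IV isoforms known from single tissues were at or near 0. Cox7a1 and Cox8b, of heart and skeletal muscle, and Cox6b2, of testis, had no count in any library, and 3 counts, the limit that a count of 0 allows, correspond to 0.360 and 0.590 CPM of all counts in shGFP and 0.216 and 0.858 in Ell2-KD. Cox8c and Cox7b2, both of testis, had 0 to 4 and 0 to 1 counts. Cox6a2, a muscle form, had 0 and 1 counts in shGFP and 19 and 0 in Ell2-KD, and Ndufa4l2 had 1 to 5 counts. Their common counterparts were measured well. Cox6a1, which held 99.3% to 100% of the Cox6a counts, had 133 and 179.8 against 181 and 193 CPM, the lower Ell2-KD library just above the higher control, and a log2 change of 0.26 ± 0.25 (SE). Cox6b1, at the contact of the dimer, had 106 and 118 against 106 and 93.7 CPM, Cox7a2 had 145 and 234 against 195 and 269 CPM, and Cox7b had 94.2 and 122 against 143 and 92.5 CPM, all with overlap. Summed muscle markers (7 genes) stood at 3.48 to 6.29 CPM in shGFP and 4.0 to 6.76 CPM in Ell2-KD.

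Cox8a, the ubiquitous form of the smallest subunit, had the highest log2 estimate of all 83 genes at 0.69 ± 0.48 (SE), and it rested on 1 library. It stood at 31.7 and 47.4 CPM in shGFP and 94 and 32.8 CPM in Ell2-KD, and over the alternatives the estimate ran from -0.27 to 1.26. Ndufa4 had 215 and 608 against 339 and 534 CPM, with a wide gap between the shGFP libraries. Cox5a and Cox5b, which bind on the matrix side, had 148 and 124 against 141 and 165 CPM and 31.2 and 42.1 against 39.7 and 43.6 CPM. Per kilobase of the principal transcript Cox5b stood at 0.157, 0.253, 0.210 and 0.198 of the level of Cox5a in shGFP 1 and 2 and Ell2-KD 1 and 2. Over the means the ratio was 0.202, but 0.359 by the union of exons and 0.570 by the longest transcript, and 30.8% of the 35-base windows of Cox5b occur in another gene.

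ATP synthase has a catalytic head of alpha (Atp5a1), beta (Atp5b), gamma (Atp5c1), delta (Atp5d) and epsilon (Atp5e) subunits. Atp5a1 was the most precisely measured gene, at 960.1 and 826 CPM in shGFP and 972 and 931 CPM in Ell2-KD. Its log2 change was 0.09 ± 0.19 (SE) with a 95% interval of -0.33 to 0.52. Atp5b, the subunit that makes ATP, stood at 1294 and 953 CPM in shGFP and 1503 and 1149 CPM in Ell2-KD, with overlap, and its log2 change was 0.24 ± 0.22 (SE). Per kilobase of the principal transcript the ratio of Atp5b to Atp5a1 was 1.74 and 1.49 in shGFP and 2.0 and 1.59 in Ell2-KD. That ratio depends on the length: over the means of the 4 libraries it was 1.71 by the principal transcript, 1.85 by the longest transcript and 0.983 by the union of exons. The gamma subunit, the rotating shaft, gave the lowest value of the head: Atp5c1 had 165 and 153 against 121 and 107 CPM, without overlap, and -0.48 ± 0.25 on the log2 scale (SE; by edgeR adjusted p = 0.871). Atp5d and Atp5e had log2 changes of -0.04 ± 0.24 and -0.04 ± 0.50 (SE).

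The stalk and membrane subunits that hold head and ring together numbered 7, with a median of -0.07. Atp5f1, the b subunit of the outer stalk, was higher without overlap at 231 and 227 against 246 and 354 CPM, with a log2 change of 0.39 ± 0.24 (SE). Atp5k, the e subunit at the dimer contact, was lower without overlap at 16.9 and 15.5 against 10.9 and 9.37 CPM, with -0.68 ± 0.57 (SE). Atp5j, coupling factor 6, had only 3.97 to 7.34 CPM, and its estimate was -0.64 ± 0.96 (SE). None of these passed the edgeR test.

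The rotor ring of ATP synthase is built from 1 protein, the c subunit, which 3 genes encode with different import sequences. The bases shown are the first 120 of the last 228 of each coding sequence, which encode the mature protein, from GENCODE M21 transcripts of GRCm38, and capitals mark the 29 positions where the 3 genes are not all alike.
Atp5g1: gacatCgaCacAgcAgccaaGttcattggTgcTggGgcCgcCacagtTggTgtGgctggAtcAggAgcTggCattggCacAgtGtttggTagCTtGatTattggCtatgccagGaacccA
Atp5g2: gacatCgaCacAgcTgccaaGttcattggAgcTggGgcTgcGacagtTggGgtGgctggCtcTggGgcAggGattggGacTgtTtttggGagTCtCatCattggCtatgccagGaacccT
Atp5g3: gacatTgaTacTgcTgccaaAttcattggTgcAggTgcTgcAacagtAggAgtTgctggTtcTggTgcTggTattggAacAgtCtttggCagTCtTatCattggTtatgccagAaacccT
Over the 228 bases Atp5g1 and Atp5g2 differ at 34, of which 32 are the last base of a codon, Atp5g1 and Atp5g3 at 46, and Atp5g2 and Atp5g3 at 49. The longest identical runs are 21, 11 and 8 bases, so a read of 35 bases within this stretch differs from both other genes at 1 or more bases. Atp5g3 took 94.5% and 94.9% of the counts of the 3 genes in shGFP and 90.1% and 93.5% in Ell2-KD. Atp5g3 stood at 228 and 329 CPM in shGFP and 270.0 and 284 CPM in Ell2-KD, with a log2 change of -0.01 ± 0.24 (SE). Atp5g2 had 7.15 and 13.7 against 21 and 12 CPM and Atp5g1 had 6.08 and 3.97 against 8.51 and 7.61 CPM. Their log2 changes, 0.68 ± 0.62 and 0.68 ± 0.84 (SE), rest on 41 to 296 and 20 to 120 counts, and parts of both transcripts occur in other genes: 100% of the 35-base windows of Atp5g2 and 67.1% of those of Atp5g1.

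The 3 genes caught by name were all lower in both Ell2-KD libraries than in both controls, as were 18.5% of all tested genes. Atp5s rests on 50 and 25 counts in shGFP and 13 and 8 in Ell2-KD. Atp5sl had 14.8 and 18.9 against 8.87 and 4.39 CPM, Atp5s had 5.96 and 4.96 against 0.922 and 2.34 CPM and Cox4nb had 64.5 and 58.5 against 52.6 and 53 CPM, with log2 changes of -1.31 ± 0.65, -1.80 ± 1.21 and -0.22 ± 0.31 (SE). None passed the edgeR test. They were chosen after their values were seen, and without them and the assembly factors the median of the 76 structural subunits was -0.04.

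Levels of different genes were set side by side as CPM per kilobase of the principal transcript (mean ± SD over the 4 libraries). Ndufa4 had 695 ± 294, Atp5b 639 ± 121, Cox4i1 638 ± 67.6 and Atp5e 613 ± 258 CPM per kilobase. These 4 lie within each other's spread, so their order is not resolved. Then came Atp5g3 at 389 ± 57.8, Atp5a1 at 373 ± 26.8, Cox7a2 at 319.9 ± 80.6, Ndufb8 at 301 ± 53.1, Cox6a1 at 300.5 ± 46.5 and Uqcrq at 248 ± 45.5 CPM per kilobase, where neighbours again overlap. The median was 148 CPM per kilobase in complex III, 140.2 in II, 128 in V, 113 in IV and 71.9 in I. Within the complex I core, Ndufs1 (176 ± 17.6) was highest and Ndufs3 (55.4 ± 14.1 CPM per kilobase) lowest. By the union of exons Ndufs1 stood at 56.3 CPM per kilobase, below Ndufs8 at 82.0. In complex II, Sdhd (167 ± 24.1), Sdhb (158 ± 42) and Sdha (122 ± 25.2 CPM per kilobase) lay within each other's spread. By the union of exons Sdha (85.8) was above Sdhb (80.8 CPM per kilobase). Sdhc (48.7 ± 14.5 CPM per kilobase) was the lowest of complex II, and Cyc1 stood at 81.3 ± 8.60 CPM per kilobase. The length chosen moves such orders: Ndufb8 was the highest of the 35 tested complex I genes by the principal transcript, but number 10 by the union of exons and by the longest transcript, where Ndufc2 was highest. By the principal transcript, the lowest tested structural subunits were Cox7c at 4.44 ± 3.04, Atp5j at 6.38 ± 1.93, Atp5g1 at 11 ± 3.34 and Ndufb4 at 11 ± 4.56 CPM per kilobase.

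**Figure D3:**
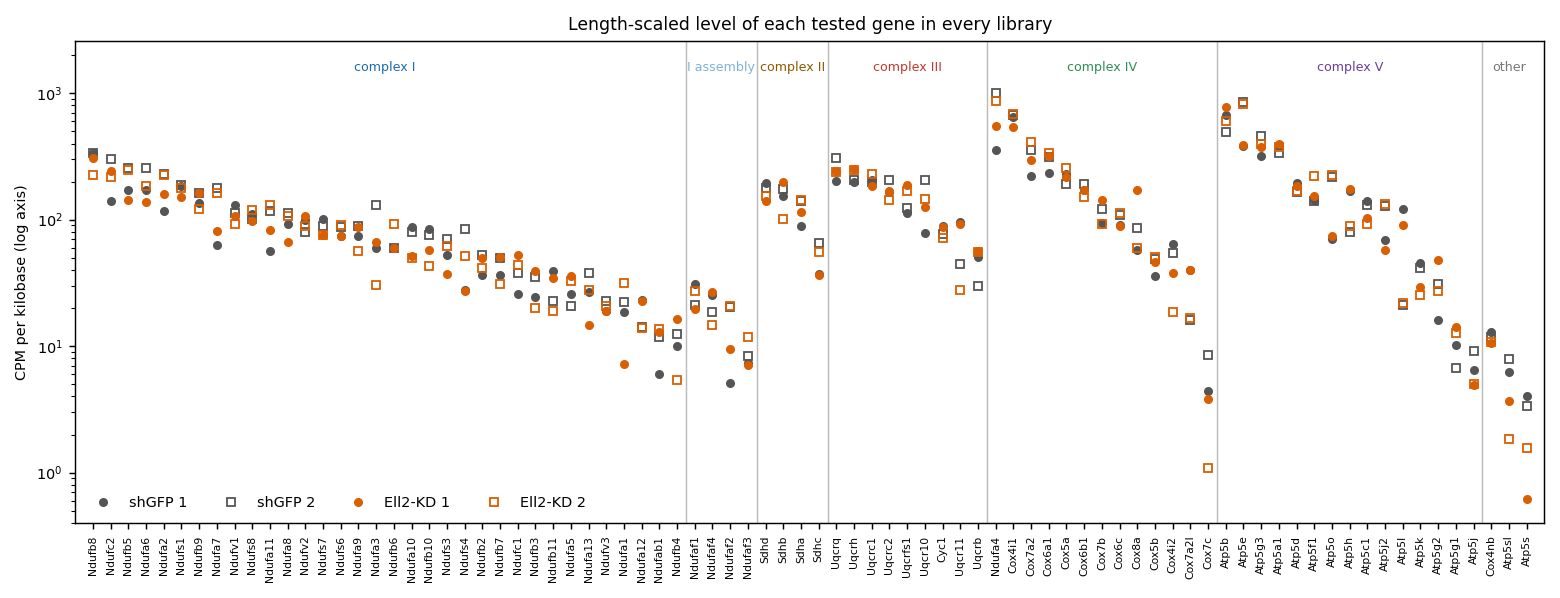
CPM per kilobase of transcript (vertical log axis) of 82 of the 83 tested genes in each library, with circles for replicate 1 and squares for replicate 2, sorted by mean within each complex. Levels within complexes IV and V span from the lowest genes, Cox7c and Atp5j, to the highest, Ndufa4 and Atp5b, and in genes such as Atp5o and Atp5l the symbols part by shape, not by colour.

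Levels were lower among transcripts that share sequence with other loci. A read that matches several places in the genome may be dropped or assigned to another copy, and the treatment of such reads is not given in the sources. Of the 91 genes, 48 share 1 or more 35-base window of their transcript with another gene, 18 share 20% or more of their windows and 6 share 50% or more (Atp5g2, Atp5l, Atp5g1, Atp5h, Cox7c and Uqcrb). Leaving out tissue isoforms, the median level was 110.6 CPM per kilobase in the 35 genes that share none, 89.1 in 30 with less than 20% and 46.7 in 18 with 20% or more. These are descriptions over genes, which also differ in length, and the part of shared sequence in the levels was not tested.

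Ndufs5, an accessory subunit of complex I on the side of the intermembrane space, had 0 counts in all 4 libraries, while the other 35 complex I genes all had enough counts to be tested. Its coding sequence has a near-identical copy in BC002163, annotated as a processed pseudogene. Over 319 aligned bases they differ at 2, and the longest identical run is 214 bases. The first 120 coding bases, with capitals at both differences, come from GENCODE M21 transcripts of GRCm38.
Ndufs5: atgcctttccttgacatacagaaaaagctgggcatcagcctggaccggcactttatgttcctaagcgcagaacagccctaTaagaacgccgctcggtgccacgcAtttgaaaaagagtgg
BC002163: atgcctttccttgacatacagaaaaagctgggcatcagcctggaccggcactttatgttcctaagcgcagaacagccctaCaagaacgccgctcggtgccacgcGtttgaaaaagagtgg
BC002163 had 18 and 31 counts in shGFP and 30 and 19 in Ell2-KD. Of the Ndufs5 windows of 35 bases, 46.0% occur in another annotated transcript and the rest do not. Whether the annotation used for counting held another gene at Ndufs5, or its reads were dropped, was not tested.

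**Figure D4:**
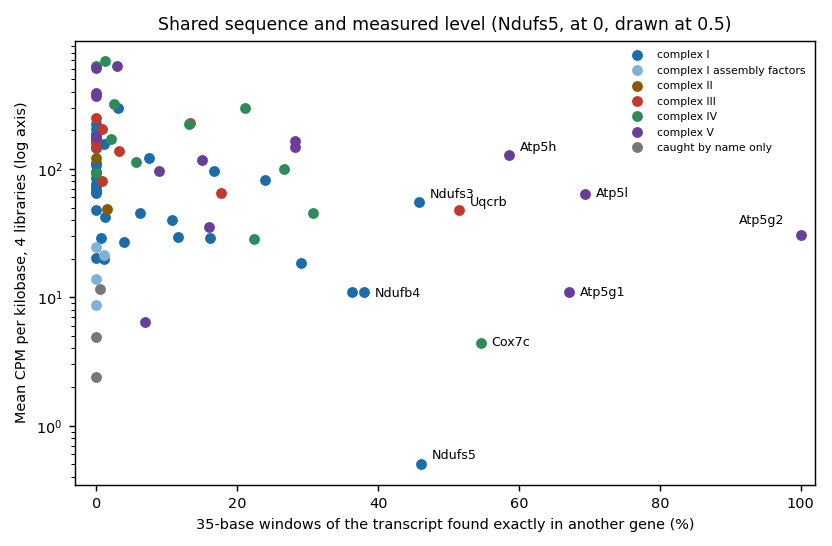
Mean CPM per kilobase over the 4 libraries (vertical log axis) against the percent of a transcript's 35-base windows found exactly in another gene (horizontal axis), for 83 genes coloured by complex, without the tissue isoforms. Ndufs5, at 0, is drawn at 0.5. Only 6 genes have 50% or more shared windows, and none of them is among the 10 highest. That number is too small to read as a trend.

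Some subunit genes differed between replicate numbers far more than between groups. The labels number the libraries 1 and 2 in each group and do not say that a number stands for a shared day or culture. For 49 of the 83 genes, or 59.0%, the gap between replicates 1 and 2 was larger in both groups than the change from shGFP to Ell2-KD, against 43.2% of all tested genes. A gap compares 1 library with 1, and a change compares groups of 2. The median absolute gap of the 83 genes was 0.43 log2 units in shGFP and 0.42 in Ell2-KD, against 0.40 and 0.50 over all tested genes. Their median absolute change between groups was 0.19, against 0.33 over all tested genes. A gap of over 1 log2 unit in the same direction in both groups was seen for 6 genes, or 7.23%, against 6.85% of all genes. Among principal transcripts under 1000 bases it was 10.2% of the subunit genes against 18.2% of all tested genes. At 1000 bases or more it was 2.94% against 5.83%. The genes named next were chosen after their values were seen. Atp5o, which joins the outer stalk to the head, stood at 59.4 and 182 CPM in shGFP and 62.4 and 189 CPM in Ell2-KD. Atp5e had 162 and 361 against 165 and 343 CPM, and Ndufaf2, an assembly factor of complex I, had 3.46 and 13.9 against 6.46 and 14.1 CPM. In these 3, replicate 2 was the higher in each group. Atp5l, the g subunit, went the other way at 66.4 and 11.5 CPM in shGFP and 49.3 and 12 CPM in Ell2-KD. So did Cox7a2l, a factor that joins complexes III and IV, at 42.9 and 17.5 against 43.4 and 17.9 CPM, and Uqcr11 at 43 and 20.04 against 40.8 and 12.3 CPM. Just outside the limit was Atp5h, at 105 and 50.4 against 110.2 and 55.3 CPM. Cox7a2l took 22.8% and 18.2% of the counts of the Cox7a genes in replicates 1 and 6.94% and 6.22% in replicates 2.

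Transcript length went with the size of this gap, and so did shared sequence. Of the 83 genes, 49 have a principal transcript under 1000 bases, and their median absolute gap between replicate numbers was 0.52 log2 units in shGFP and 0.45 in Ell2-KD. The 34 longer ones had 0.29 and 0.35. Over all genes the corresponding medians were 0.74 and 0.71 for 883 short transcripts and 0.38 and 0.48 for 10030 longer ones. Without tissue isoforms, the median gap was 0.28 in shGFP and 0.41 in Ell2-KD for the 35 genes that share no 35-base window. It was 0.45 and 0.42 for 30 with less than 20% shared and 0.69 and 0.70 for 17 tested genes with 20% or more. Genes with 20% or more also have shorter transcripts (median 610.5 bases, Ndufs5 included, against 1079 with none). The part of each was not tested. Within replicate number 1 the median change of the 83 genes from shGFP to Ell2-KD was 0.02 log2 units, and within number 2 it was -0.13. What the number stands for, and its part in these gaps, was not tested.

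**Figure D5:**
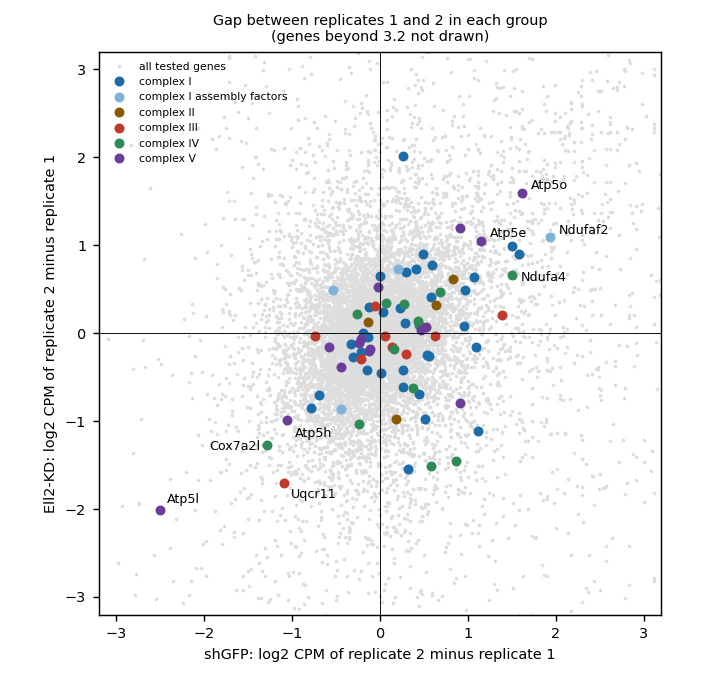
The log2 CPM of replicate 2 minus that of replicate 1 in shGFP (horizontal axis) and in Ell2-KD (vertical axis) for all tested genes (grey) and the subunit genes and assembly factors (coloured by complex). Atp5o, Atp5e and Ndufaf2 lie beyond 1 at the upper right and Atp5l, Cox7a2l and Uqcr11 beyond -1 at the lower left.

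Promoters of these genes were read to see what they share in sequence. Nuclear respiratory factor 1 (NRF1) and the ETS-type factor GABP are known activators of many respiratory chain genes. RefSeq promoters (GRCm38.p6, 250 bases before to 50 after the start) were found for 74 of the 91 genes, 80 promoters in all. Cox6a1 (chr5:115348909-115349208, minus strand) and Sdhd (chr9:50603800-50604099, minus strand) hold both kinds of motif and are shown as examples, with the matches in capitals.
Cox6a1: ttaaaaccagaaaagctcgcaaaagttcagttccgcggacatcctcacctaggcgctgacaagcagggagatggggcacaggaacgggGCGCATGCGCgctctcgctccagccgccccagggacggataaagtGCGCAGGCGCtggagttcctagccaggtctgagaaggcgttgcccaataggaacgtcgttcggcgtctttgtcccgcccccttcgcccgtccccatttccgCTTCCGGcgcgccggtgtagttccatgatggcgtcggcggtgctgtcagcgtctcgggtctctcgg
Sdhd: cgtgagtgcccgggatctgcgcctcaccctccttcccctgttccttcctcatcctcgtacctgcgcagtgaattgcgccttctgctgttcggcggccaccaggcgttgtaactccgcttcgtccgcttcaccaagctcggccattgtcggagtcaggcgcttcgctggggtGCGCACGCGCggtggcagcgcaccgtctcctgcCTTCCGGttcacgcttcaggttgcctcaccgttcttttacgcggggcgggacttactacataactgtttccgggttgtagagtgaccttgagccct
The Cox6a1 promoter has NRF1 matches at bases 89 and 134 and an ETS match at base 235, counted from the 5′ end of the line, and the Sdhd promoter has them at 172 and 205.

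On either strand the NRF1 motif, GCGC, then any base, then TGCGC, was present in 19 of the 80 promoters (23.8%), against 10.7% of 11037 promoters of other tested genes and 4.6% of all 32851 promoters. The match was found in 8 of 34 promoters of complex I, 6 of 17 of complex V, 2 of 3 of complex II, 1 of 5 of complex III and 1 of 14 of complex IV. The ETS letters CCGGAAG were in 17 (21.3%), against 18.8% and 8.86%. The letters AAGATGGCG, bound by YY1, were in 9 (11.3%), against 3.2% and 1.4%, of which 5 were in complex I. TCAAGGTCA, bound by estrogen-related receptors, was in 2, Atp5g3 and Sdhd (2.50%), against 0.245% and 0.423%. GGGCGG, bound by SP1, was in 34 (42.5%), against 63.5% and 35.7%, and TATAAA was in 8 (10.0%), against 6.95% and 13.6%. The NRF1 and SP1 letters share G and C runs and were counted separately. A match describes letters in a window and is no evidence of binding, and none of these counts was tested.

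Other genes of mitochondrial metabolism are given by whole lists, and none of their genes passed the threshold in edgeR or DESeq2. Citric acid cycle and pyruvate dehydrogenase genes, which supply the chain with NADH and succinate, had 11 of 19 above 0 and 8 below, with a median log2 change of 0.13. At an unadjusted p under 0.05 edgeR counted 5 of them (26.3%, against 5.82% of all tested genes) and DESeq2 4. The smallest p-values belonged to Pdha1, the pyruvate dehydrogenase subunit, which had 206 and 203 CPM in shGFP and 346 and 465 CPM in Ell2-KD and an adjusted p of 0.450 in edgeR. Idh2, which makes NADPH in the mitochondrion, had 216 and 228 CPM in shGFP and 121 and 121 CPM in Ell2-KD and an adjusted p of 0.541 in edgeR. The groups did not overlap in either gene, and their log2 changes were 0.99 ± 0.23 and -0.88 ± 0.24 (SE).

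Assembly factors outside the naming rule, such as those of complex IV, had 13 of 26 above 0 and 13 below, a median of 0.01 and 4 (15.4%, against 5.82% of all tested genes) with an unadjusted edgeR p under 0.05. Tmem126a had 79.3 and 83.7 against 46.4 and 40.7 CPM and Sco2, which delivers copper to complex IV, 11.7 and 8.14 against 28 and 24.9 CPM. Electron carriers and ubiquinone synthesis genes had 6 of 17 above 0 and 11 below, a median of -0.15 and 1 such p (5.88%). Etfdh, which feeds electrons from fatty acids to ubiquinone, had 24.7 and 21.2 against 37.9 and 57.7 CPM, and Coq4 16.9 and 15.9 against 11.1 and 4.10 CPM. Regulators of mitochondrial biogenesis had 10 of 16 above 0 and 6 below, a median of 0.20 and 1 such p (6.25%). That was Gabpa, the DNA-binding subunit of GABP, at 123 and 129 against 219.8 and 167 CPM and an edgeR adjusted p of 0.810, while its partner Gabpb1 had 164 and 103 against 96.3 and 79.3 CPM.

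Proteins of the mitochondrial ribosome, which makes the subunits encoded in the organelle, had 35 of 76 above 0 and 41 below, a median of -0.03 and 5 (6.58%, against 5.82% of all tested genes) with an unadjusted edgeR p under 0.05. Mrpl24 had 76.4 and 72.2 against 28.8 and 38.1 CPM and Mrps6 15.6 and 16.1 against 29.2 and 41.6 CPM, each without overlap. Import proteins of the Tomm and Timm families had 9 of 20 above 0 and 11 below, a median of -0.05 and 0 such p, with Tomm40l at 38.5 and 48.6 against 27.5 and 24 CPM and Tomm20 at 58.2 and 76.6 against 82.6 and 107 CPM. The medians of all these lists lay between -0.15 and 0.20, beside -0.05 for the subunit genes.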

How the data were processed

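The 4 libraries were SOLiD RNA-seq of MPC11 cells. The values deposited by the authors are raw read counts, whole numbers by gene symbol with a file for every library, per the file headers. Named in the submitters' processing notes are DESeq 1.4.1, HTSeq 0.5.3, SAMtools 0.1.11 and the genome mm9. Aligner, annotation and strand setting are not given in the sources, so a gene and an overlapping or antisense partner cannot be told apart; 33 of the 91 genes overlap an exon of another gene.

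The members, gene lists and tests were chosen with earlier results of these data known. The test was that of edgeR 4.0.16 in R 4.3.3: filterByExpr (minimum count 10, minimum total 15), TMM, quasi-likelihood test (robust, two-sided) of Ell2-KD against shGFP on the 4 libraries, with no term but the group, and Benjamini-Hochberg adjustment over the 11027 genes tested, threshold 0.05. The common biological coefficient of variation was 0.43. Sums per complex are shares of raw totals, and other CPM are TMM-scaled. An SE is the log2 change over the square root of F. Of the genes, 2 were matched through an older symbol to GENCODE M21 and RefSeq (GRCm38), which served for lengths, shared windows and sequences, not for mm9 coordinates. The length is that of the APPRIS principal transcript, chosen after exon unions of small genes proved to reach several kilobases.

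Named genes are Ell2, Sdha to Sdhd and Cyc1, members with the smallest p or the extreme levels per complex, fixed paralog pairs and core subunits, and the 2 with the smallest p of each list; 1 gene that the rule takes is not reported here by itself. Other genes that the text names (Ndufc1, Ndufc2, Ndufa5, Ndufb6, Ndufab1, Ndufaf2, Uqcr11, Atp5o, Atp5l, Atp5h, Atp5s, Atp5sl and Cox4nb) were chosen after their values were seen and are not followed through the alternatives one by one. Alternatives were DESeq2 1.42.0, RLE scaling, no filter or a stricter one (mean of at least 5 CPM), non-robust dispersion, a replicate block, each library left out, other library totals and other lengths. The edgeR step was checked on simulated counts. No set test was made.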

Additional observations from a re-analysis of the deposited data

How the results depend on the processing

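No subunit gene passed the edgeR threshold under any alternative run. In the alternatives that kept every library, the smallest adjusted p among them ran from 0.237 (edgeR with a replicate block) to 0.9996 (edgeR with no filter on low counts). Among all genes, 5 passed in edgeR, 22 with no filter on low counts, 34 with DESeq2, 1 with non-robust dispersion, and from 14 to 142 with 1 library left out, the most without Ell2-KD replicate 1. Those fits leave 1 group with a single library, which is assumed to vary like the other group. The median log2 change of the subunit genes, -0.05, ran from -0.19 (without shGFP replicate 1) to 0.037 when libraries were left out. The mean share of counts, 1.11% in shGFP and 1.10% in Ell2-KD, was 1.11% in Ell2-KD by TMM library sizes, and 1.20% in both groups without the 20 most abundant genes, of which 0 are subunit genes.

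With the replicate number as a block, 28 genes passed and still no subunit gene, with a smallest adjusted p of 0.237 for Ndufa10. Deviations of same-numbered libraries correlated at 0.31 over all genes and 0.49 over the subunit genes. With 2 numbers and no statement of what they share, this is only a hint from the data, and the libraries were not treated as pairs.

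The alternatives were followed gene by gene for 48 of the 83 tested genes, chosen in part for a small p. Of these 48, 24 kept the sign of their change in every alternative. The largest change among those that did not was 0.69, for Cox8a. The lengths used move the levels per kilobase: by the union of exons Ndufa4 stood at 307 and Ndufb8 at 65.0 CPM per kilobase. Depth limits the low genes, since Ell2-KD replicate 2 holds 3496471 counts.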
